A study of Mus musculus with 18 samples.

Results

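Cell cycle and DNA replication genes were followed through 3 immune cell fractions sorted from tumour-bearing mouse livers, with and without treatment. The list names 42 genes: 22 that act in mitosis, 18 of the G1/S switch, DNA replication and nucleotide supply (S phase genes below), and Stmn1 and Hmgb2. Members were found by their symbol in the FPKM table, joined to the count table by gene identifier. This rule found 40 of the 42 among 48440 identifiers, with all 22 mitosis genes, 16 S phase genes and both others. Cdt1 and Gins2 were not found by it and are not analysed here.

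All animals were wild-type C57BL/6J mice, 7 weeks old at purchase, with liver tumours induced by RAS and MYC. Leukocytes (CD45+) came from a CD8 T cell gate (CD3+CD8+), a gate for the other T cells (CD3+CD8-) and a gate negative for both markers (CD3-CD8-), from untreated mice or from mice given PolyIC, a double-stranded RNA mimic, together with anti PD-L1, an antibody that blocks an inhibitory ligand of T cells. The protocol text, the same for every sample, gives 4 mg/kg PolyIC and 200 µg anti-PD-L1 for 6 doses, and lists an antibody to VEGF-A at 5 mg/kg that the treatment labels do not name. The 18 libraries form 6 groups of 3, named by the number in the library name (untreated 1, 5 and 18, with 6 in place of 1 in CD3+CD8- cells, and treated 2, 11 and 19). No label says that these numbers are animals, so p-values measure the spread between these libraries. Before the number, the names read C for untreated 1, 5 and 18 but CV for untreated 6. They read P for treated 2 and 11 but PL for treated 19, and the labels do not explain these letters. The title of treated CD3+CD8- replicate 11 reads P111-3, where its library name reads P11-3.

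Total counts ran from 1829155 to 28233682 per library, and the members took 538 to 41232 of them. In 3 libraries, untreated CD3+CD8+ 1 and 18 and treated CD3+CD8- 2, 5 ribosomal loci held 79.7% to 87.0% of counts, against 0.348% to 2.26% in the other 15. Sort markers were at odds with some labels. Untreated CD3+CD8- replicate 6 had Cd8a at 638.9 CPM (counts scaled to library size with TMM factors), against 4.61 and 6.81 in the other libraries of its group. The libraries labelled CD3-CD8- held T cell RNA, with Cd3e at 51.8 to 124.8 CPM untreated and 172.7 to 310.7 CPM treated, and Cd8a at 60.6 to 286.8 CPM untreated and 547.0 to 982.6 CPM treated. Ptprc, which encodes CD45, lay between 1156 and 3140 CPM in all 18 libraries.

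A dividing cell first commits to S phase, when E2F factors released from RB family proteins switch on the replication genes, and a second wave of genes, read in G2 and mitosis, builds the spindle and drives chromosome segregation. The second wave is known to be controlled through a CHR element (cell cycle genes homology region) in the promoter, often beside CCAAT boxes bound by NF-Y. In lymphocytes both waves rise with activation, and resting naive cells show little of either. In tissue leukocytes, activated T cells, NK cells, germinal centre B cells, and erythroid and granulocyte precursors are the usual carriers of these transcripts.

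The 2 waves can be read in the promoters of the members. Windows of 300 bases, 250 before to 50 after the transcription start, were available for 33 of the 40 genes in RefSeq (GRCm38.p6). The E2F-type motif TTTNNCGC, read on both strands, was in a window of 7 of 14 S phase genes and of 1 of 18 mitosis genes (Cdk1), against 5.2% of all 32851 windows. A CHR motif, TTTGAA or TTCGAA on either strand, was in 14 of 18 mitosis genes and 2 of 14 S phase genes, against 19.2% of all windows. CCAAT on either strand was in 16 of 18 mitosis genes and 9 of 14 S phase genes, against 37.4% of all windows. A match describes the letters and is not a bound site. Of the 7 S phase genes that fell in the treatment comparison below, Mcm3, Mcm5, Mcm7 and Uhrf1 have an E2F-type match in a window, and E2f1, Tk1 and Mcm2 have none. The E2f1 window (chr2:154569377-154569676, minus strand) lies wholly inside the annotated gene, whose 5′ end is at 154569892. The absence of a match there says nothing about the bases before that end. The Cdc6 window, which has a match, also lies inside its annotated gene. So do both Mcm7 windows, of which the one nearer the 5′ end of the gene has the E2F-type matches. The Uhrf1 window that is not printed, which also has a match, lies inside its gene as well. The windows of 3 S phase genes with a match and 3 mitosis genes, all of which passed a test below, are printed 5′ to 3′ on the strand of the gene, with all matches to these motifs in capitals. In the Mcm5 window 2 E2F-type matches on opposite strands overlap, as do 2 CCAAT matches in the Uhrf1 window, and Uhrf1 and Prc1 have another window that is not shown.
Mcm5 (chr8:75109259-75109558, plus strand): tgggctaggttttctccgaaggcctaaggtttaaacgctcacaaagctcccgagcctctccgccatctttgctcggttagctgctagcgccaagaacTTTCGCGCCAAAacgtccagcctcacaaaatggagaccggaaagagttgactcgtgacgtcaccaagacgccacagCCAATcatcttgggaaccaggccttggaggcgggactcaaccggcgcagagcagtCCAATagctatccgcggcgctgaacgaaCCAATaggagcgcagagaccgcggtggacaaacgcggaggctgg
Mcm3 (chr1:20820263-20820562, minus strand): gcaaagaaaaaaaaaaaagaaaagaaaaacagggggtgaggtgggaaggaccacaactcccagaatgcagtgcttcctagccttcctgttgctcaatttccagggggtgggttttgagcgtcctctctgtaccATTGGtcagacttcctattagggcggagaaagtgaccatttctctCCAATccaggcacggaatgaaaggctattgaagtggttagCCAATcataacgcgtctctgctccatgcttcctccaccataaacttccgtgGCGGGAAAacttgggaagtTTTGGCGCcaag
Uhrf1 (chr17:56303087-56303386, plus strand): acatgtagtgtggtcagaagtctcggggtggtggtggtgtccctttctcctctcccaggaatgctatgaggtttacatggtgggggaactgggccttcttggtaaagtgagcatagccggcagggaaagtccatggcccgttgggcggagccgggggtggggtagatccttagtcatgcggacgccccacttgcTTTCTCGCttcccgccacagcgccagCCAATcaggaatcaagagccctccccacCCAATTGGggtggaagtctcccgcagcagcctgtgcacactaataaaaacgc
Kif11 (chr19:37376132-37376431, plus strand): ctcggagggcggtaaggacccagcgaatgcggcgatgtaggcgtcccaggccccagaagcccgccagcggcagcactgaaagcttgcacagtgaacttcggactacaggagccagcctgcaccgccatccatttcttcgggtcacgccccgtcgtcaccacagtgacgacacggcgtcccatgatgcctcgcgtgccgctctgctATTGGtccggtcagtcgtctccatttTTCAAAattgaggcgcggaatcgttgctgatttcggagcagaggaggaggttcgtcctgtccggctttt
Prc1 (chr7:80294226-80294525, plus strand): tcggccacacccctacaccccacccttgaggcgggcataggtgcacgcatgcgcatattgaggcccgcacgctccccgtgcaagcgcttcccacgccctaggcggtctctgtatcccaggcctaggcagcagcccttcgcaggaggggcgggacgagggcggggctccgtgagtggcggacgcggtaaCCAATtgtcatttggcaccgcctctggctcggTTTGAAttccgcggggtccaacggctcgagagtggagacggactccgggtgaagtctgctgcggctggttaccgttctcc
Kif23 (chr9:61946750-61947049, minus strand): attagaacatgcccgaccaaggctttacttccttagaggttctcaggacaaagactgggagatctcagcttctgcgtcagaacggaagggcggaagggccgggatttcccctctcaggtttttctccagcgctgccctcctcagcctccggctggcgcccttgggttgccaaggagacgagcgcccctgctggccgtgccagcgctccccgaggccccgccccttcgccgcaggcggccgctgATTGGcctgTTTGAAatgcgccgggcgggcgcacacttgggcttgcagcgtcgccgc

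Compared per length, by the median of the deposited FPKM values over the 15 libraries not rich in ribosomal counts, the chromatin protein gene Hmgb2 (115.2, range 48.5 to 206.5) and Pcna (114.5, range 71.0 to 161.5), the sliding clamp of DNA polymerases, stood highest, and their ranges overlap. The helicase subunit gene Mcm6 followed with 39.3 and Stmn1, which encodes a microtubule destabiliser, with 34.9. The mitosis genes were lower: Top2a led them with 10.4, then Cdk1 with 9.80 and Mki67 with 9.24, all with overlapping ranges. E2f1 (0.956) and Cenpf (0.559) were near the bottom of the order. Tk1 was listed at 0 FPKM in 13 of these 15 libraries, Kif20a in 8, Ccne2 in 6, Cdc20 in 5 and Ccna2 in 1, although each of these 5 genes had counts in every library, so the levels below rest on counts.

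The mean log2 CPM over a set of members gives each library's level of that wave. For the 22 mitosis genes it was 3.43 ± 0.64 (SD, n = 3) in untreated CD3+CD8+ cells, 3.39 ± 0.49 in untreated CD3+CD8- cells and 2.95 ± 0.04 in untreated CD3-CD8- cells. In treated mice it was 3.26 ± 0.97, 2.98 ± 0.67 and 2.51 ± 0.79 in the same order (n = 3 each). For the 16 S phase genes the untreated groups stood at 4.42 ± 0.48, 4.35 ± 0.57 and 4.36 ± 0.15, and the treated groups at 4.32 ± 0.37, 3.94 ± 0.49 and 3.85 ± 0.26. The spread within a group was wide everywhere but in untreated CD3-CD8- cells, whose mitosis level lay between 2.91 and 2.99.

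**Figure D1:**
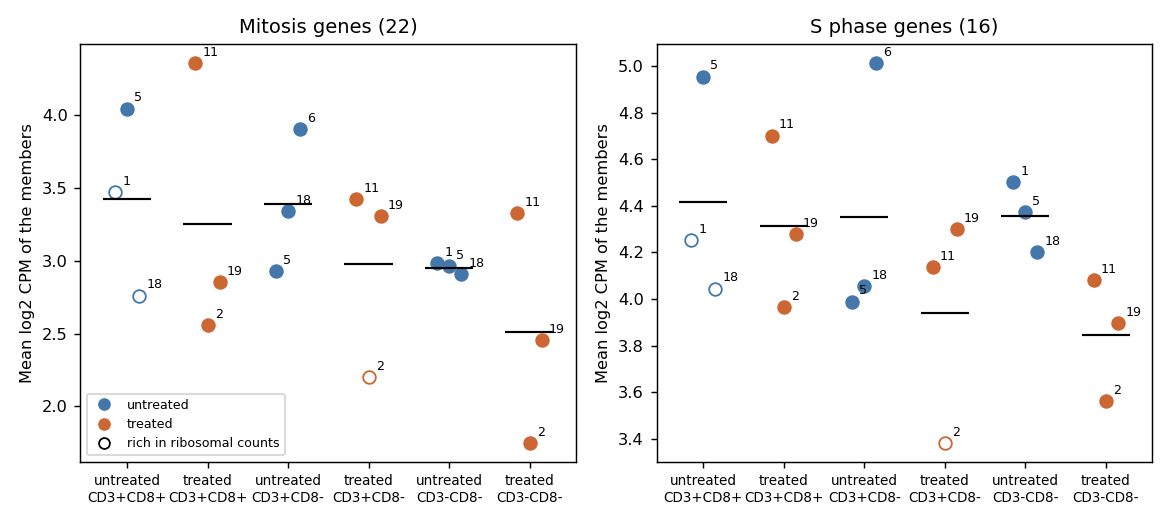
Mean log2 CPM over the 22 mitosis genes (left) and the 16 S phase genes (right) in each of the 18 libraries, by group, with library numbers beside the points, bars at group means and open points for the 3 libraries rich in ribosomal counts. Treated replicate 11 stands highest among treated libraries of the mitosis panel in each fraction, and treated CD3-CD8- replicate 2 is lowest of all at 1.75.

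Single libraries stood apart across most members. Treated replicate 11 was the highest of its 3 libraries for 21 of 22 mitosis genes in CD3+CD8+ cells and for 22 of 22 in CD3-CD8- cells, and for 11 and 8 of 16 S phase genes. In treated CD3+CD8- cells it was the highest for 13 of 22 mitosis genes and 7 of 16 S phase genes, and replicate 19 for 8 of each. Its mitosis level was 4.36 in CD3+CD8+ cells, where replicates 2 and 19 had 2.56 and 2.85. Summed neutrophil markers (10 genes, led by S100a9 and S100a8) were also highest in replicate 11 among the treated libraries of each fraction: 688.3 CPM against 149.4 and 97.9 in CD3+CD8+ cells, 32923 against 13902 and 11795 in CD3+CD8- cells, and 20558 against 591.3 and 1562 in CD3-CD8- cells. The granulocyte progenitor markers (7 genes) summed to 18.9 CPM in replicate 11 of the CD3+CD8- fraction, the highest of all 18 libraries, against 2.31 and 7.80 in replicates 2 and 19. In CD3-CD8- cells they summed to 10.5 CPM in replicate 11 against 0.199 and 2.01, and in CD3+CD8+ cells to 0.4996 CPM against 0 and 0.514. The part of these cells in the member levels was not tested. Untreated CD3+CD8- replicate 6, the library with Cd8a RNA, was highest for 35 of 40 members, including 16 of 16 S phase genes. It also had 10204 CPM of erythroid transcripts (12 genes, led by Hbb-bs) where the other libraries of its group had 288.3 and 1008, and the part of these in its member levels was not tested. Treated CD3-CD8- replicate 2 was the lowest of its group for 32 of 40 members.

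Treatment was compared first in the fraction labelled CD3-CD8-, where most of the members that passed were S phase genes. E2f1, Uhrf1, Tk1, Mcm5, Mcm2, Mcm3 and Mcm7 fell, by 0.71 to 2.18 on the log2 scale, while Prc1 was the 1 mitosis gene that rose. In all 8 of 40 members passed the edgeR quasi-likelihood test (Benjamini-Hochberg adjusted over 13781 genes, 0.05), 1 higher and 7 lower. Of all genes tested 25.6% passed, 10.2% higher and 15.3% lower, so the 8 of 40 are not more than the share of all genes. By set, 7 of 16 S phase genes and 0 of 22 mitosis genes were lower. In sorted bulk RNA, fewer cycling cells and less transcript per cell cannot be told apart.

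E2f1, which encodes the activating factor of the G1/S switch, stood at 7.97, 6.29 and 6.90 CPM in untreated libraries 1, 5 and 18 and at 1.12, 2.77 and 1.34 CPM in treated libraries 2, 11 and 19. The groups do not overlap, and the change was -2.18 on the log2 scale (SE 0.35, edgeR adjusted p = 0.0104). Uhrf1, which binds hemimethylated DNA and brings the maintenance methyltransferase to it, went from 12.9, 12.7 and 8.98 CPM to 2.47, 4.36 and 3.47 CPM. Every treated library was below every untreated one, with a change of -1.82 (SE 0.25, edgeR adjusted p = 0.00903). Tk1, the thymidine kinase of the salvage pathway, went from 8.85, 10.4 and 9.14 CPM to 2.35, 4.16 and 2.47 CPM, a change of -1.76 (SE 0.26, edgeR adjusted p = 0.00909).

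Mcm2 to Mcm7 encode the 6 subunits of the replicative helicase, of which 4 fell and 2 did not pass. No test compared the subunits with each other. Mcm5 stood at 63.2, 61.2 and 43.0 CPM untreated and at 27.3, 25.3 and 34.6 CPM treated, with no overlap and a change of -0.96 (SE 0.18, edgeR adjusted p = 0.013). Mcm2 fell by 0.86 on the log2 scale (SE 0.18), from 32.1 to 41.5 CPM untreated to 16.8 to 24.5 CPM treated. Mcm3 (change -0.72) and Mcm7 (change -0.71) also passed, with edgeR adjusted p of 0.0111 and 0.0121. The other 2 subunits had positive changes and did not pass: Mcm4 at 0.26 (SE 0.15, edgeR adjusted p = 0.23) and Mcm6 at 0.45 (SE 0.17, edgeR adjusted p = 0.089), with Mcm6 at 71.8 to 94.4 CPM untreated and 105.2 to 137.6 CPM treated.

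The remaining S phase genes did not pass in these cells. Pcna stood at 179.1, 131.9 and 106.7 CPM untreated and 139.5, 163.2 and 146.2 CPM treated, which overlap (change 0.07, SE 0.19). Among the genes of nucleotide supply, the ribonucleotide reductase subunit genes Rrm1 and Rrm2 had changes of -0.05 and -0.47, and Tyms, for thymidylate synthase, 0.17. Ccne1 and Ccne2, the E-type cyclins that partner CDK2 at S phase entry, had changes of 0.18 and 0.48, and Cdc6, which loads the helicase, -0.71 (SE 0.69).

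**Figure D2:**
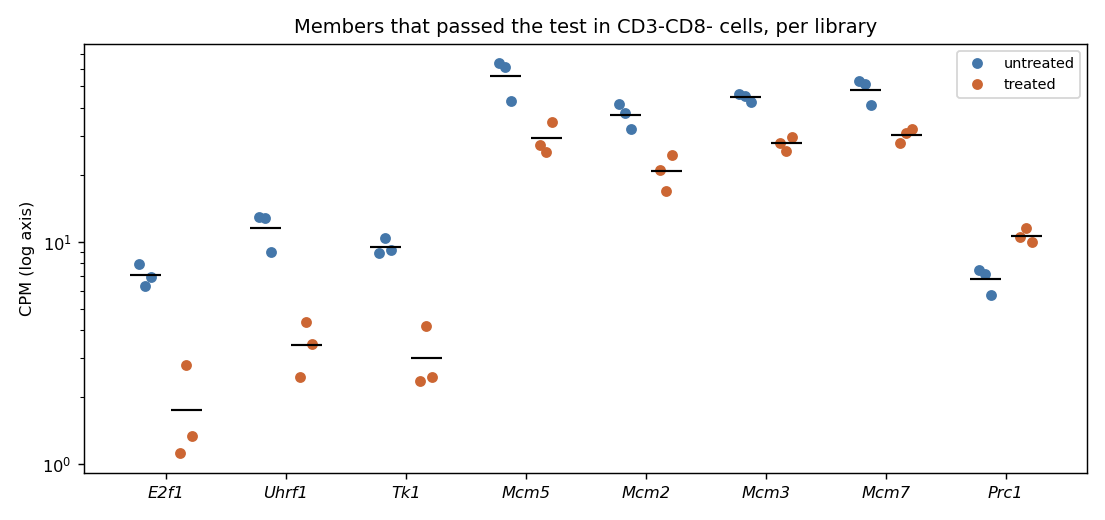
CPM (log axis) in each of the 3 untreated and 3 treated CD3-CD8- libraries for the 8 members that passed the edgeR test, with bars at group means. All 7 S phase genes have every treated library below every untreated one, and Prc1 the reverse.

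The mitosis genes of the CD3-CD8- fraction had a median change of -0.57 and the S phase genes one of -0.59, against -0.06 over all genes tested, but 15 of the 22 mitosis genes were negative with wide errors and 0 passed in that direction. Prc1, which bundles antiparallel microtubules at the central spindle, rose from 7.49, 7.13 and 5.77 CPM to 10.5, 11.5 and 9.93 CPM (change 0.61, SE 0.18, edgeR adjusted p = 0.043). Rccd1 overlaps 21810 bases of Prc1 on the opposite strand, as Gm20708 does 10567 bases of Tk1, and the strand setting of the counting is not given, so reads of such pairs cannot be told apart. Prc1 passed in 3 of 12 alternatives tried. The proliferation marker Mki67 stood at 57.6, 58.5 and 51.4 CPM untreated and at 76.6, 104.4 and 64.1 CPM treated, which do not overlap, and its change of 0.51 (SE 0.18) did not pass (edgeR adjusted p = 0.077). Top2a, which untangles replicated DNA, had a change of 0.23 (SE 0.17). Cdk1, the kinase of mitotic entry, and its partner Ccnb1 had changes of -0.25 (SE 0.29) and 0.01 (SE 0.28).

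Treated replicate 2 of this fraction weighed on the mitosis values. Ccna2, the cyclin of S phase and G2, stood at 8.44, 9.03 and 8.82 CPM untreated and at 1.83, 12.1 and 5.58 CPM in treated libraries 2, 11 and 19 (change -0.58, SE 0.55). Birc5, a member of the chromosomal passenger complex, stood at 8.31, 6.92 and 6.66 CPM untreated and 1.04, 6.34 and 3.69 CPM treated, with a change of -1.13 (SE 0.53). For both genes the treated libraries spread more widely than the untreated ones, and neither passed. Without treated replicate 2 the median change of the mitosis genes was -0.07 and that of the S phase genes -0.18. Fewer of all genes passed in that setting as well, and 4 S phase genes did, a count not set beside that share. Of the other mitosis genes, these had negative changes that did not pass: the kinesin gene Kif20a -1.25, the polo kinase gene Plk1 -0.99, Ccnb2 -0.95, the ubiquitin conjugating enzyme gene Ube2c -0.88, Cdc20, an activator of the ubiquitin ligase that ends mitosis, -0.86, and the Aurora kinase genes Aurka -0.79 and Aurkb -0.78. The kinetochore gene Cenpf (-0.72), the spindle assembly gene Tpx2 (-0.60), the checkpoint kinase genes Bub1 (-0.56) and Bub1b (-0.33) and the kinesin gene Kif11 (-0.18) had smaller negative values. Kif23 (0.03), the kinetochore motor gene Cenpe (0.09) and the spindle protein gene Nusap1 (0.49) were positive. Of the 2 members outside the sets, Stmn1 stood at 35.1, 27.3 and 26.1 CPM untreated and 3.39, 25.3 and 9.66 CPM treated (change -1.34, SE 0.59), and Hmgb2 at 232, 147.3 and 126.4 CPM untreated and 284.8, 349 and 238.9 CPM treated (change 0.76, SE 0.24, edgeR adjusted p = 0.0569). Groups did not overlap for 17 members, 5 higher and 12 lower, where 45.4% of all genes tested did so, 22.4% higher and 23% lower.

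The changes in this fraction moved with GC content, and so did those in both other fractions. Here the 20 members at or above the median transcript GC of 47.6% had a median change of -0.86, and the 20 below it 0.08. The same medians were -0.48 and 0.06 for treatment in CD3+CD8+ cells and -0.62 and -0.20 in CD3+CD8- cells. Across the 40 members the change correlated with GC content at r = -0.717 in CD3-CD8-, -0.561 in CD3+CD8+ and -0.63 in CD3+CD8- cells, and the difference of CD3+CD8+ over CD3-CD8- cells at -0.543, as descriptions over genes that share libraries. All 7 genes that fell have a GC content of 51.7% to 58.3%, while Prc1 has 43.3% and Hmgb2 38.7%. By set, the S phase genes have a median GC content of 50.5% (36.3% to 58.3%) and the mitosis genes one of 47.0% (41.0% to 56.0%). The part of this in the calls of the 2 sets was not tested. The subunit genes that did not fall, Mcm4 and Mcm6, have 45.5% and 47.3%. With the dependence of each library's counts on GC content removed, 634 of all genes passed, and of the members Uhrf1 (change -1.49, edgeR adjusted p = 0.0313) and Tk1 (change -1.60, edgeR adjusted p = 0.0302). E2f1 (-1.34, edgeR adjusted p = 0.0846), Mcm5 (-0.80), Mcm2 (-0.71), Mcm3 (-0.50) and Mcm7 (-0.40) stayed negative without passing, so none of the 6 helicase subunit genes passed. Mcm4 then had -0.075, Mcm6 0.24, Prc1 0.12 and Hmgb2 0.08. Within sequencing lane 2 (untreated 1 and 18, treated 2 and 11) and lane 3 (untreated 5, treated 19) the log2 ratios were -1.93 and -2.23 for E2f1, -1.68 and -1.87 for Uhrf1, -1.47 and -2.07 for Tk1, and -1.01 and -0.82 for Mcm5. Leaving out untreated replicate 5 ended all 8 calls, with 239 of all genes passing. Leaving out treated replicate 11 gave 12 members, a count not set beside the share of all genes in that setting.

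**Figure D3:**
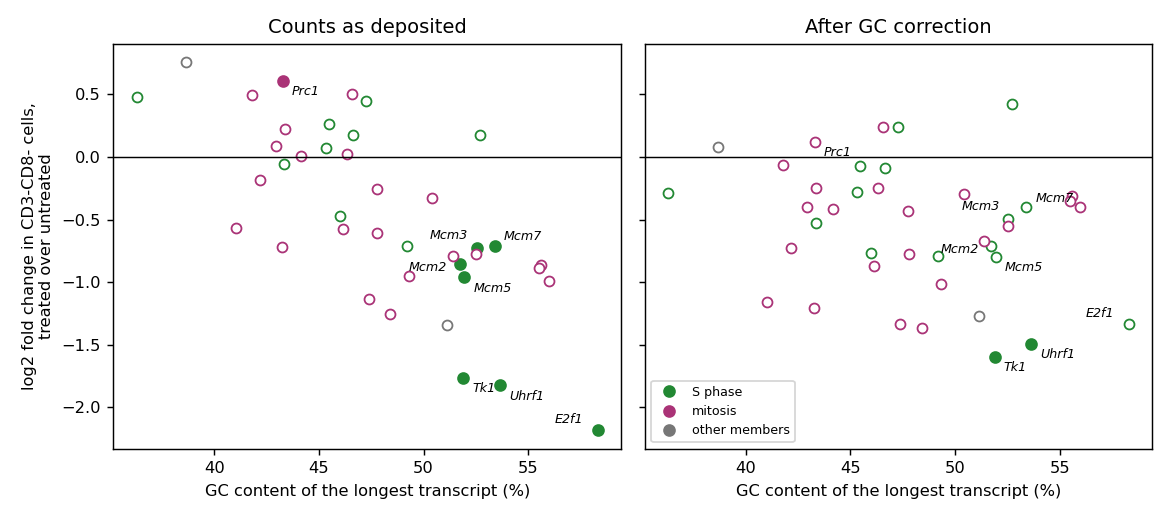
Change with treatment in CD3-CD8- cells (log2, treated over untreated) against the GC content of the longest transcript for the 40 members, from the counts as deposited (left) and after GC correction (right), filled points passing the edgeR test. Of the 8 filled points on the left, Uhrf1 and Tk1 stay filled on the right.

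Markers of the cells in this fraction moved as well. The summed B cell markers (9 genes, led by Cd79b, Ighd and Ms4a1) were at 2776 to 3949 CPM untreated and 1693 to 2277 CPM treated, and 7 of the 9 genes passed as lower. The T cell and CD8 markers (8 genes, led by Cd3g) were at 625.8 to 1638 CPM untreated and 3248 to 5025 CPM treated, and 6 of 8 passed as higher. The NK cell markers (7 genes, led by Gzma) went from 1366 to 1722 CPM untreated to 2949 to 4049 CPM treated, without overlap, with 2 genes passing as higher and 1 as lower and a median change of -0.56. All 10 neutrophil markers had positive changes, with a median of 4.33, and 4 passed. Their sum was 135.8 to 878.5 CPM untreated and 591.3, 1562 and 20558 CPM treated, so replicate 11 stood far above the others. Of the 7 Kupffer cell markers 3 passed as lower (201.6 to 735.0 CPM untreated, 62.6 to 340.4 treated in sum), as did 3 of the 9 monocyte and macrophage markers (1330 to 2207 and 1017 to 2942 CPM). The 7 germinal centre B cell markers summed to 42.9 to 58.0 CPM untreated and 43.6 to 68.5 CPM treated. None of the B cell, T cell, NK cell, neutrophil, Kupffer cell or monocyte markers was at 0 throughout a group, and the part of these shifts in the member changes was not tested.

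The rest of the pathway in CD3-CD8- cells held genes that passed in both directions, and for the mitotic and replication genes no more often than the 25.6% of all genes. Of 59 further mitotic genes tested, 6 rose and 8 fell, led by the kinesin gene Kif18b (change -2.43, SE 0.55), the centromere protein gene Cenpm (-2.27, SE 0.68) and the kinetochore gene Spc24 (-2.10, SE 0.51). Of 58 further replication genes, 8 rose and 4 fell: the polymerase delta subunit gene Pold1 fell by 2.42 on the log2 scale (SE 0.39) and the fork protection gene Timeless by 1.35 (SE 0.22), while the chromatin remodeller gene Hells rose by 1.17 (SE 0.17). Of 10 G1 cyclins and kinases 2 rose and 3 fell, with Myc at -1.27 (SE 0.28), the D-type cyclin gene Ccnd3 at -1.14 (SE 0.22) and Cdk6 at 1.11 (SE 0.23). Of 15 cell cycle inhibitors and repressors 3 rose and 3 fell, among them the CDK inhibitor gene Cdkn1a at -1.32 (SE 0.36), the DREAM complex gene Lin9 at 0.98 (SE 0.18) and the pocket protein gene Rbl2 at 0.80 (SE 0.19).

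In CD3+CD8+ cells, the cytotoxic T cell gate, treatment gave no member that passed. By edgeR 0 of 40 members and 0 of 10654 genes passed (0.0%), with 624 genes and 0 members at an unadjusted p under 0.05, and DESeq2 and limma voom also called 0 members. Mki67 stood at 198.9, 93.6 and 111.2 CPM in untreated libraries 1, 5 and 18 and at 301.9, 89.9 and 72.5 CPM in treated libraries 11, 2 and 19. Top2a stood at 113.3, 95.7 and 81.5 CPM untreated and 203.2, 70.4 and 53.0 CPM treated. For both genes treated replicate 11 is the highest of all 6 libraries and replicates 2 and 19 the lowest 2, so the groups overlap. The changes were 0.15 (SE 0.54) for Mki67 and 0.11 (SE 0.47) for Top2a.

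The other members of the CD3+CD8+ fraction were as spread. Ccnb1 stood at 3.78, 13.2 and 5.56 CPM untreated and 19.8, 7.43 and 7.02 CPM treated (change 0.35, SE 0.60), Cdk1 at 12.6, 19.8 and 9.27 and at 24.6, 6.22 and 7.64 CPM (change -0.26, SE 0.58). Untreated values of replicates 1 and 18 rest on few reads. In untreated libraries 1, 5 and 18 Ccnb1 had 3, 127 and 3 counts and E2f1 had 1, 55 and 1. All members together held 1118, 16329 and 538 counts there. Among S phase genes Mcm5 had a change of -0.40 (SE 0.38), Pcna 0.07 (SE 0.37), Rrm2 -0.23 (SE 0.51) and Ccne1 0.35 (SE 0.52), and Stmn1 and Hmgb2 had -0.54 and 0.37. The smallest unadjusted p were those of E2f1 (change -0.93, SE 0.61), Mcm6 (0.44), Mcm7 (-0.49), Uhrf1 (-0.85) and Ccnb2 (-0.95), with an edgeR adjusted p of 0.999 each. Mcm6 was the 1 member whose groups did not overlap, with 94.5 to 159 CPM untreated and 160.8 to 180.04 CPM treated, where 10% of all genes did not overlap, 6.54% higher and 3.46% lower. In all 12 members had a positive and 28 a negative change, with a median of -0.27 against -0.03 over all genes tested. Both untreated replicates 1 and 18 are rich in ribosomal counts, so without them a single untreated library is left: the member median was then -0.61 and 0 members passed. Without untreated replicate 5 the mitosis and S phase medians turned to 0.15 and 0.29, and without treated replicate 2 to 0.10 and 0.05. Of the further lists 0 genes passed either, in 55 mitotic, 55 replication, 10 G1 and 14 inhibitor genes tested.

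In CD3+CD8- cells, the gate that takes in CD4 T cells, 0 of 40 members and 0 of 11197 genes passed (0.0%), with 198 genes and 0 members at an unadjusted p under 0.05. Mki67 stood at 90.7, 128 and 112.7 CPM in untreated libraries 5, 18 and 6 and at 169.8, 72.8 and 101.4 CPM in treated libraries 11, 2 and 19, which overlap (change 0.04, SE 0.34). Stmn1 stood at 17, 20.9 and 50.9 CPM untreated and at 23.9, 9.25 and 15.8 CPM treated (change -0.86, SE 0.49), so untreated replicate 6 alone carried the high untreated value. The pattern was shared: 34 of 40 members were negative, with a median of -0.33 against -0.02 over all genes, and treated replicate 2, a library rich in ribosomal counts, was the lowest of its group for 35 of 40. Tk1 had the largest change, -1.08 (SE 0.55), then E2f1 (-1.004, SE 0.66), Ube2c (-0.98, SE 0.59), Uhrf1 (-0.96, SE 0.56) and Stmn1, with an edgeR adjusted p of 1 each. Tk1 was the 1 member without overlap, at 4.71 to 9.69 CPM untreated and 1.44 to 4.62 CPM treated, where 4.05% of all genes did not overlap, 2.78% higher and 1.28% lower. Without untreated replicate 6 the mitosis median was 0.01 and the S phase median 0.08, and without treated replicate 2 they were -0.01 and -0.23. Top2a (0.12), Cdk1 (-0.03), Ccnb1 (-0.21), Mcm5 (-0.52), Pcna (-0.22), Rrm2 (-0.47), Ccne1 (-0.63) and Hmgb2 (-0.09) did not pass. Summed neutrophil markers in this fraction were at 3412, 15485 and 5481 CPM in untreated libraries 5, 18 and 6 and at 32923, 13902 and 11795 CPM in treated libraries 11, 2 and 19, and their part in these values was not tested. Of the further lists 0 genes passed in 52 mitotic, 54 replication, 10 G1 and 15 inhibitor genes tested.

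**Figure D4:**
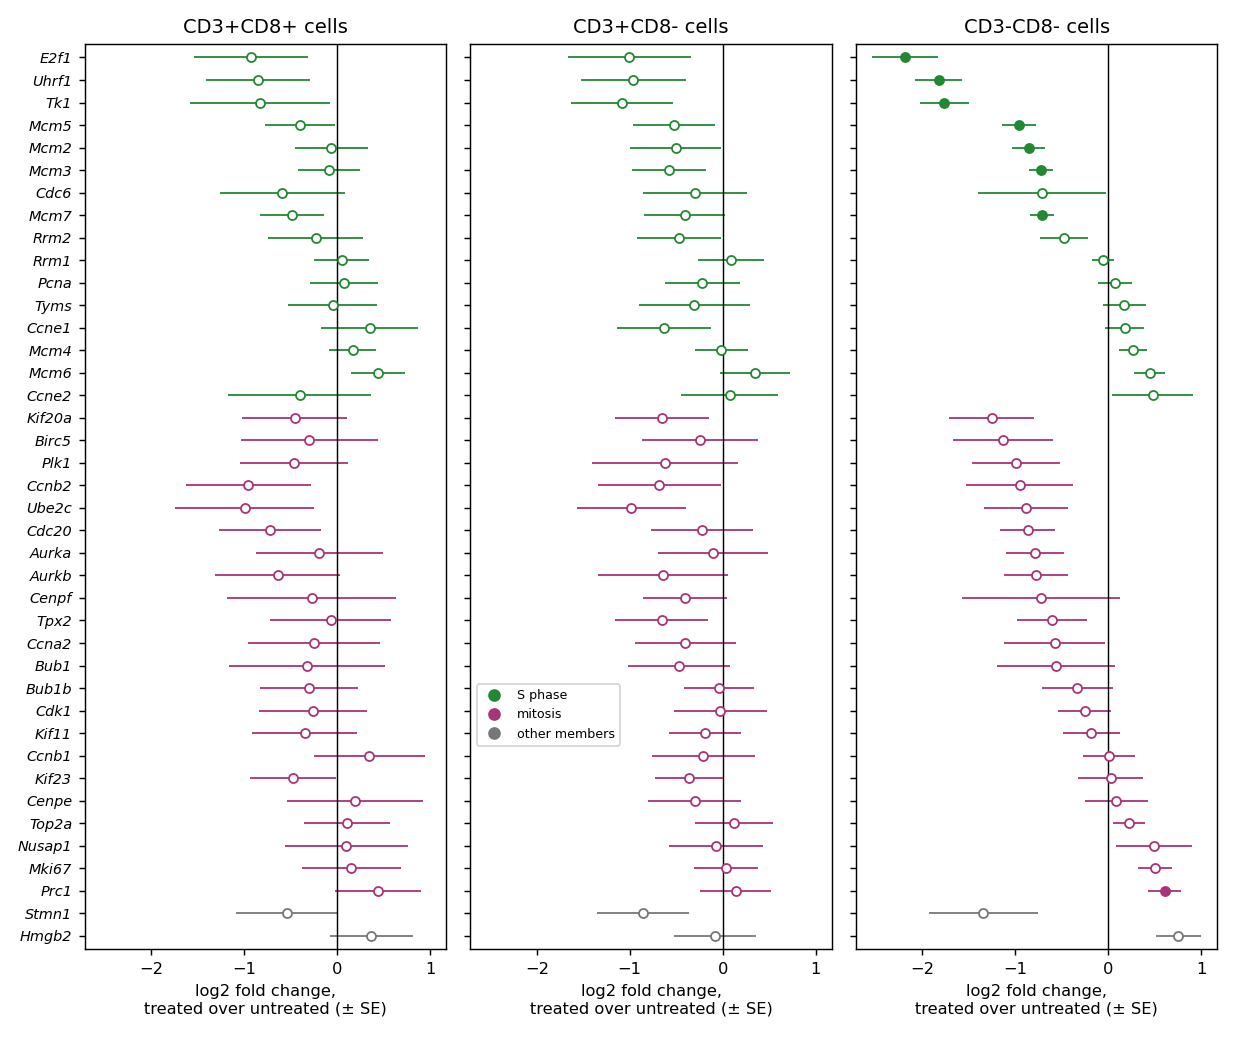
Change with treatment (log2, treated over untreated, ± SE from the edgeR fit) for each of the 40 members in CD3+CD8+, CD3+CD8- and CD3-CD8- cells, filled where the gene passed the test and ordered by the change in CD3-CD8- cells within each set. Filled points are in the CD3-CD8- panel only, 7 S phase genes below 0 and Prc1 above 0. E2f1, Uhrf1 and Tk1 lie below 0 in all 3 panels, with wide errors in the CD3+CD8+ and CD3+CD8- panels.

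E2f1, Uhrf1 and Tk1 had negative changes in all 3 fractions, and passed only in the one labelled CD3-CD8-. With GC correction they were at -0.57, -0.79 and -0.91 in CD3+CD8+ cells and at -0.56, -0.81 and -1.10 in CD3+CD8- cells, and did not pass. In CD3+CD8+ cells untreated replicate 5 held the highest E2f1 (5.72 CPM) and Tk1 (10.9 CPM). Within lane 3 (untreated 1 and 18, both rich in ribosomal counts, and treated 19) the log2 ratios were 0.377, -0.686 and 1.348 in the same order. In CD3+CD8- cells untreated replicate 6 was highest for all 3 genes. Within lane 2 (untreated 5 and 18, treated 11), which lacks it, the ratios were -0.555, 0.099 and -2.063. Whether treatment acted differently between fractions was tested by the interaction in 1 fit over the 18 libraries. By edgeR 0 of 40 members passed for CD3+CD8+ against CD3+CD8- cells, for CD3+CD8+ against CD3-CD8- cells and for CD3+CD8- against CD3-CD8- cells (0.0% of 13181 genes each), with 0 members and 478, 515 and 503 genes at an unadjusted p under 0.05. DESeq2 called 116, 1 and 19 genes and 0 members, and limma voom 0, 235 and 0 genes and 0 members. The largest differences among members were those of E2f1, at 1.19 (SE 0.83) for CD3+CD8+ and 1.10 (SE 0.80) for CD3+CD8- against CD3-CD8- cells. Mcm3, Mcm2, Mcm4 and Uhrf1 were also among the members of smallest p, with differences of -0.29 to 0.95. The genes followed throughout lay between -0.86 (Hmgb2) and 0.99 (Ccne1). So the falls in CD3-CD8- cells are not shown to differ from the changes in the other fractions.

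Between fractions, averaged over untreated and treated mice, the mitosis genes were mostly lowest in the fraction labelled CD3-CD8-, which had the lowest median of the 3 for 16 of 22, while the highest was in CD3+CD8+ cells for 9 and in CD3+CD8- cells for 9. Kif11, Top2a, Mki67 and Prc1, and of the S phase genes Mcm4, were higher in CD3+CD8+ than in CD3-CD8- cells by differences that passed the test. In this comparison 5 of 40 members passed as higher and 0 as lower by edgeR (adjusted over 13181 genes), where 12.8% of all genes passed, 4.85% as higher and 7.99% as lower. All 22 mitosis genes had a positive difference, with a median of 0.84, and 13 of 16 S phase genes, with a median of 0.48, against 0.01 over all genes.

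Kif11, the kinesin that pushes the spindle poles apart, had a lowest, median and highest level of 13.1, 29.0 and 56.1 CPM in the 6 CD3+CD8+ libraries and of 6.02, 10.1 and 14.3 CPM in the 6 CD3-CD8- libraries. The ranges overlap at their ends, and the difference was 1.61 (SE 0.36, edgeR adjusted p = 0.0073). It passed under all 20 alternatives tried, between 1.004 and 1.729, while Prc1 passed under 18 of them, Top2a under 13, Mki67 under 11 and Mcm4 under 8. Top2a stood at 53.0, 88.6 and 203.2 CPM against 38.6, 43.0 and 63.6 CPM (difference 1.18, SE 0.32, edgeR adjusted p = 0.0219). Mki67 stood at 72.5, 102.4 and 301.9 CPM against 51.4, 61.3 and 104.4 CPM, with a difference of 1.09 (SE 0.32, edgeR adjusted p = 0.0358), and Prc1 at 5.56, 17.3 and 29.8 CPM against 5.77, 8.71 and 11.5 CPM (1.02, SE 0.25, edgeR adjusted p = 0.0131). Mcm4 was the 1 member whose 2 fractions did not overlap, at 66.7 to 90.4 CPM against 46.0 to 66.6 CPM, where 3.99% of all genes did so, 1.79% as higher and 2.2% as lower (difference 0.53, SE 0.14, edgeR adjusted p = 0.0187). Without the libraries rich in ribosomal counts Top2a and Mki67 did not pass, and with GC correction, alone or with the replicate number as a block, Mcm4 did not. Libraries with the same number deviated together in these fractions (all 6 pairs with r of 0.151 to 0.451), and with the number as a block 11 members passed, all higher, where 17.4% of all genes passed, 6.43% as higher and 11% as lower. The block kept all 5 and added Ccna2 (1.37, SE 0.27), Cenpf (1.65, SE 0.38), Kif23 (0.88), Tpx2 (0.94), Rrm2 (0.98) and Ccne1 (0.85). With GC correction and the block 10 members passed, again all higher, without Mcm4 and Kif23 and with Uhrf1 (0.79, SE 0.21), where 17.3% of all genes passed, 6% as higher and 11.3% as lower.

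The members that did not pass between these fractions were Ccne1 (0.91), Rrm2 (1.04), Ccnb1 (0.73), Cdk1 (0.50), Stmn1 (0.50), Hmgb2 (0.28), Pcna (0.07) and Mcm5 (-0.09) among those followed throughout. Treated CD3+CD8+ replicate 11 had the highest level of all 18 libraries for the 4 called mitosis genes. Without that library the mitosis median was 0.33 and 1 member passed, Kif11, a count not set beside the share of all genes in that setting. Of 58 further mitotic genes tested 7 were higher and 0 lower, where 12.8% of all genes passed and 4.85% as higher, led by Hmmr (1.85, SE 0.57), the spindle pole gene Aspm (1.77, SE 0.44) and Racgap1 (1.45, SE 0.35), and of 58 further replication genes 7 were higher, led by E2f7 (1.44), Fancd2 (1.22) and Dtl (1.18). Of 10 G1 genes Cdk6 (0.90) and Ccnd2 (0.62) were higher, and of 15 inhibitors Tob1 (0.78) and Rbl1 (0.55) were higher and Cdkn1a (-1.20) lower.

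**Figure D5:**
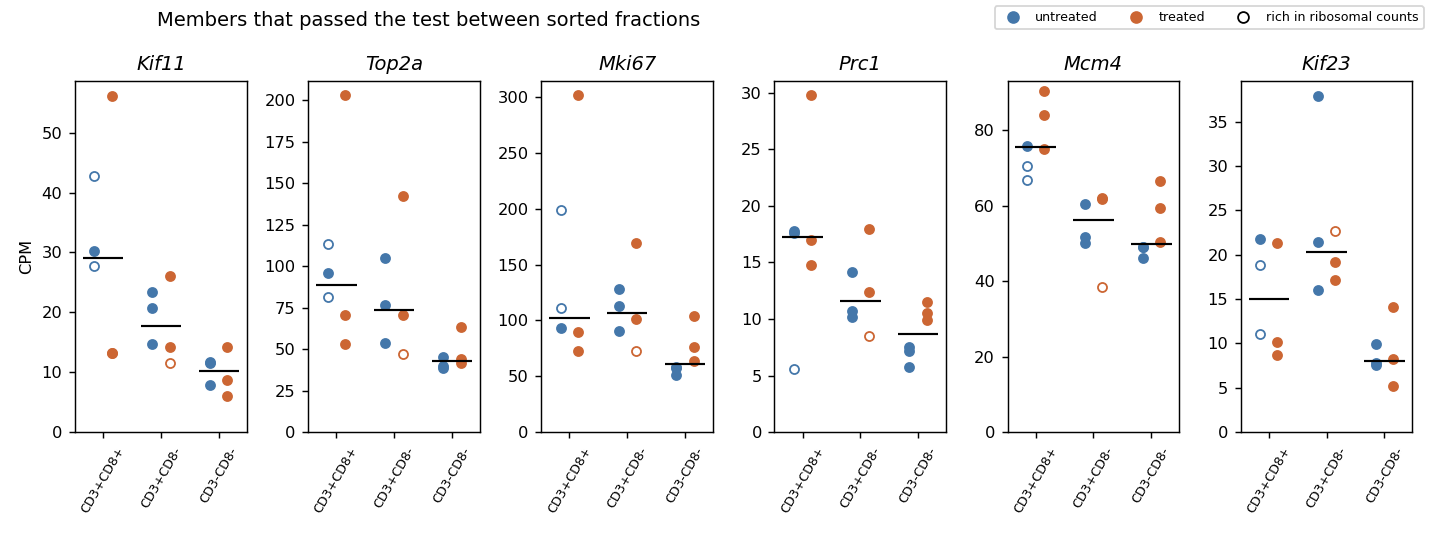
CPM in the 6 libraries of each fraction for the 6 members that passed a test between fractions without the block, with untreated and treated libraries in different colours, open points for libraries rich in ribosomal counts and bars at the medians of 6. The CD3-CD8- median is the lowest of the 3 in each panel, and 1 treated CD3+CD8+ library, replicate 11, tops the Kif11, Top2a, Mki67 and Prc1 panels.

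CD3+CD8- cells had the highest median of the 3 fractions for 9 of 22 mitosis genes and the lowest for 6 of 16 S phase genes. Against CD3-CD8- cells 1 member passed, where 8.13% of all genes passed, 5.27% as higher and 2.85% as lower: Kif23, a motor of the central spindle that works with the Racgap1 product, at 16.03, 20.3 and 38.0 CPM against 5.22, 8.01 and 14.1 CPM (lowest, median and highest of 6 libraries). These do not overlap, which 4.1% of all genes reach, 2.05% in each direction, and the difference was 1.35 (SE 0.29, edgeR adjusted p = 0.00814), passing under all 20 alternatives. The mitosis genes had a median difference of 0.53, with 20 of 22 positive, and the S phase genes one of 0.04, with 9 of 16 positive, against 0.00 over all genes. Top2a (0.86, SE 0.32), Mki67 (0.74, SE 0.32), Rrm2 (0.78, SE 0.34), Ccnb1 (0.29), Hmgb2 (0.25), Stmn1 (0.20), Ccne1 (0.18), Cdk1 (0.01), Pcna (-0.12) and Mcm5 (-0.32) did not pass. Without the Cd8a-positive replicate 6 the S phase median was -0.14. Kif23 was still the 1 member called, a count not set beside the share of all genes in that setting. All 5 pairs of libraries with the same number in these fractions deviated together (r of 0.168 to 0.556), and with the number as a block 7 members passed, 6 higher and 1 lower, where 16.9% of all genes passed, 9.33% as higher and 7.61% as lower. Beside Kif23 (1.40, SE 0.28) these were Kif11 (0.85, SE 0.22), Mki67 (0.76, SE 0.23), Top2a (0.70, SE 0.20), Ccna2 (0.92, SE 0.29) and Cenpf (1.24, SE 0.40) as higher and Mcm5 (-0.60, SE 0.18) as lower, and with GC correction and the block Kif23, Kif11, Mki67 and Top2a passed, where 18.1% of all genes did, 9.6% as higher and 8.46% as lower. The 9 B cell markers all passed as lower here and between CD3+CD8+ and CD3-CD8- cells, with sums of 27.7 to 65.5 CPM in CD3+CD8-, 30.1 to 1714 CPM in CD3+CD8+ and 1693 to 3949 CPM in CD3-CD8- libraries. Their part in the member differences was not tested. Of the further lists the clamp loader gene Rfc3 (-0.75, SE 0.22) and Tob1 (1.15, SE 0.24) passed, with 0 of 58 mitotic and 0 of 10 G1 genes.

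Between the 2 T cell gates, CD3+CD8+ over CD3+CD8-, Mcm4 was the 1 member that passed (difference 0.51, SE 0.14, edgeR adjusted p = 0.0353), where 7.69% of all genes passed, 0.728% as higher and 6.96% as lower. Its 6 CD3+CD8+ libraries lay at 66.7 to 90.4 CPM and its 6 CD3+CD8- libraries at 38.5 to 62.0 CPM, without overlap, which 3.34% of all genes reach, 0.273% as higher and 3.07% as lower. It missed the threshold under 13 of 20 alternatives, among them the one without libraries rich in ribosomal counts, and its difference over all of them was 0.41 to 0.55. The 10 neutrophil markers all passed as lower (median -5.37), with sums of 44.4 to 871.1 CPM in CD3+CD8+ and 3412 to 32923 CPM in CD3+CD8- libraries, as did 3 of 9 monocyte and macrophage markers (339.1 to 1442 against 2169 to 4851 CPM) and 4 of 5 CD4 T cell markers. The part of these cells in the member differences was not tested. In all 36 of 40 members were positive, with a median of 0.32 against 0.04 over all genes, and without treated CD3+CD8+ replicate 11 the mitosis median was -0.12. Ccne1 (0.73, SE 0.31), Cdk1 (0.49), Ccnb1 (0.45), Mki67 (0.35), Top2a (0.32), Stmn1 (0.31), Rrm2 (0.26), Mcm5 (0.23), Pcna (0.19) and Hmgb2 (0.03) did not pass. Of the further lists Racgap1 (1.24, SE 0.35) and the replication gene Wdhd1 (0.66, SE 0.19) were higher, and E2f2 (-0.997, SE 0.24) and Cdkn1a (-1.66, SE 0.36) lower. The 3 fraction comparisons share libraries, so their calls are not independent of each other.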

How the data were processed

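RNA-seq was measured in 18 libraries of sorted liver leukocytes, 3 in each of 6 groups taken from the cell type and treatment labels. The authors deposited a table of raw counts per gene identifier and a table of FPKM values with symbols and loci, per the file headers. The submitters' processing notes name DESeq2 (version 3.20), Cufflinks (2.2.1), HTSeq (0.13.5) and Trim Galore (0.6.7). Not given in the sources used here are aligner, build and strand setting. The count table has 22 further library columns that match no sample and were not used. Loci end as in GENCODE vM21 (GRCm38) for 37 of 40 members. Members and gene lists were chosen with earlier results of these data known.

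Counts as deposited were fitted with edgeR 4.0.16 in R 4.3.3 (TMM, filterByExpr, quasi-likelihood F test, Benjamini-Hochberg adjustment over all genes tested, threshold 0.05). Each treatment comparison used the 6 libraries of its fraction, while fraction and interaction comparisons used all 18. All 40 members passed the filter on low counts in every comparison. CPM values use TMM scaling over 18 libraries, and set levels are means of log2 CPM with a prior count of 2. Alternatives were DESeq2 1.42.0 and its size factors, no filter, limma 3.58.1 voom with quality weights, GC offsets (a spline on the GC content of the longest transcript), sequencing lane, the replicate block, and libraries left out. Named in every treatment and fraction comparison are Mki67, Top2a, Cdk1, Ccnb1, Mcm5, Pcna, Rrm2, Ccne1, Stmn1 and Hmgb2, with up to 5 called members per direction, or the 5 of smallest p, and other members are named to account for the list; for interactions the first 10 are given by their range. No label says that library numbers pair samples, but deviations of same-numbered libraries correlated above 0.1 in 6 of 6 pairs of CD3+CD8+ with CD3-CD8- and 5 of 5 of CD3+CD8- with CD3-CD8-, so block values stand beside those results; in 3 of 5 pairs of the CD3+ gates they did. The edgeR steps were tested on simulated data with 200 changed genes. Those genes were well counted, had the same dispersion throughout and changed by more than most members did. The simulation therefore does not measure the power of the comparisons given here. Of 40 members, 17 overlap another annotated gene.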

Additional observations from a re-analysis of the deposited data

How the results depend on the processing

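With 3 libraries a group, the errors of the treatment comparisons in both CD3+ gates were wide (SE up to 0.91 on the log2 scale), so differences of that size were not detectable there. Over all alternatives, 293 values of set-level results moved by less than the spread or stayed within 1.5 times the count reported, and 41 moved. Outside the set-level results, 1367 values of single members and of counts over all genes stayed the same, and 32 moved. For a single member, the same means that direction and call were kept. Of the values of single members, 62 lost a call, 29 gained one and 125 turned direction, mostly of changes near 0. The cause of the shifts listed here was not tested, except that leaving out libraries leaves fewer samples. Values are log2 differences of the gene named, or counts of members that passed. The counts of members below stand without the share of all genes in that setting, so a higher count is not a result about the members.

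With DESeq2, for treatment in CD3-CD8-, 14 members passed, and for CD3+CD8+ over CD3+CD8-, Hmgb2 was -0.001. There, for CD3+CD8+ over CD3-CD8-, 9 members passed, and for CD3+CD8- over CD3-CD8-, Cdk1 was -0.003. With DESeq2 size factors, for CD3+CD8+ over CD3+CD8-, Hmgb2 was -0.001, and for CD3+CD8- over CD3-CD8-, Cdk1 was -0.003. With GC correction, for treatment in CD3+CD8+, Top2a was -0.082, Pcna -0.066, and for treatment in CD3+CD8-, Mki67 was -0.089, Top2a -0.099. There, for treatment in CD3-CD8-, 2 members passed and Top2a was -0.246, Ccnb1 -0.416, Pcna -0.278. With GC correction alone (an alternative chosen after seeing the data), for CD3+CD8+ over CD3+CD8-, 0 members passed and Hmgb2 was -0.158, and for CD3+CD8+ over CD3-CD8-, Mcm5 was 0.07, Pcna -0.134, Hmgb2 -0.04. There, for CD3+CD8- over CD3-CD8-, Cdk1 was -0.017. With GC correction and the replicate block, for CD3+CD8+ over CD3+CD8-, 4 members passed and Hmgb2 was -0.104, and for CD3+CD8+ over CD3-CD8-, 10 members passed and Mcm5 was 0.054, Pcna -0.154, Hmgb2 -0.065. There, for CD3+CD8- over CD3-CD8-, 4 members passed and Cdk1 was -0.354, Ccnb1 -0.213, Ccne1 -0.049, and for the interaction of CD3+CD8+ with CD3+CD8-, Mcm2 was -0.126. There, for the interaction of CD3+CD8- with CD3-CD8-, Mcm4 was 0.134. With limma voom, for treatment in CD3+CD8+, Mki67 was -0.724, Top2a -0.478, and for treatment in CD3+CD8-, Mki67 was -0.024, Cdk1 0.515, Ccnb1 0.235, Hmgb2 0.043. There, for treatment in CD3-CD8-, 21 members passed and Ccnb1 was -0.094, and for CD3+CD8+ over CD3+CD8-, Rrm2 was -0.036. There, for CD3+CD8+ over CD3-CD8-, 9 members passed and Pcna was -0.028, and for CD3+CD8- over CD3-CD8-, Cdk1 was -0.092. There, for the interaction of CD3+CD8+ with CD3+CD8-, the member median was -0.447, Mcm2 -0.025, and for the interaction of CD3+CD8- with CD3-CD8-, the member median was 0.6. With no filter on low counts, for treatment in CD3+CD8-, Cdk1 was 0.006, and for CD3+CD8+ over CD3+CD8-, 0 members passed. There, for CD3+CD8+ over CD3-CD8-, 8 members passed, and for CD3+CD8- over CD3-CD8-, 3 members passed and Cdk1 was -0.066. Without libraries rich in ribosomal counts, for treatment in CD3+CD8+, Ccnb1 was -0.235, Pcna -0.297, Ccne1 -0.168, and for treatment in CD3+CD8-, Cdk1 was 0.149, Ccnb1 0.103, Hmgb2 0.144. There, for CD3+CD8+ over CD3+CD8-, 0 members passed, and for CD3+CD8+ over CD3-CD8-, Mcm5 was 0.115. There, for the interaction of CD3+CD8+ with CD3+CD8-, Mcm3 was -0.266, Mcm4 -0.124, Mcm2 -0.358. With the replicate block, for CD3+CD8+ over CD3+CD8-, 2 members passed and Hmgb2 was -0.02, and for CD3+CD8+ over CD3-CD8-, 11 members passed. There, for CD3+CD8- over CD3-CD8-, 7 members passed and Cdk1 was -0.271, Ccnb1 -0.026, Ccne1 -0.174, and for the interaction of CD3+CD8+ with CD3+CD8-, Mcm2 was -0.153. With sequencing lane as a covariate, for treatment in CD3+CD8+, Mki67 was -0.029, Top2a -0.196, Pcna -0.141, Hmgb2 -0.021. On the FPKM scale, log2(FPKM + 1), the mitosis level differed between treated and untreated CD3+CD8+ libraries by 0.858 and the S phase level by 1.179, and the S phase level of CD3-CD8- libraries by -0.289, where log2 CPM gave -0.170, -0.103 and -0.511. On that scale untreated CD3+CD8+ replicates 1 and 18, both rich in ribosomal counts, had mitosis levels of 0.704 and 0.551 and S phase levels of 1.015 and 1.228. Untreated replicate 5 had 2.936 and 3.917.

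With each library left out in turn, values spread as follows. For treatment in CD3+CD8+ the ranges were Mki67 -0.725 to 0.542, Top2a -0.657 to 0.428, Cdk1 -1.065 to 0.162, Ccnb1 -0.229 to 1.266, Mcm5 -0.642 to 0.013, Pcna -0.23 to 0.368. For treatment in CD3+CD8+ also Rrm2 -0.835 to 0.233, Ccne1 -0.012 to 1.15, Stmn1 -1.246 to 0.156, Hmgb2 -0.152 to 0.692, E2f1 -1.166 to 0.389, Ccnb2 -1.403 to 0.128. For treatment in CD3+CD8- the ranges were Mki67 -0.328 to 0.259, Top2a -0.402 to 0.408, Cdk1 -0.354 to 0.572, Ccnb1 -0.512 to 0.261, Mcm5 -0.79 to 0.128, Pcna -0.493 to 0.153. For treatment in CD3+CD8- also Hmgb2 -0.482 to 0.204. For treatment in CD3-CD8- the ranges were members called 0 to 12, the member median -0.704 to -0.096, Ccnb1 -0.258 to 0.224, Pcna -0.059 to 0.263. For CD3+CD8+ over CD3+CD8- the ranges were members called 0 to 1, Mki67 -0.147 to 0.52, Top2a -0.122 to 0.569, Ccnb1 -0.032 to 0.63, Pcna -0.021 to 0.325, Rrm2 -0.105 to 0.417. For CD3+CD8+ over CD3+CD8- also Stmn1 -0.111 to 0.581, Hmgb2 -0.295 to 0.211. For CD3+CD8+ over CD3-CD8- the ranges were members called 1 to 8, Cdk1 -0.011 to 0.609, Mcm5 -0.342 to 0.013, Pcna -0.193 to 0.16, Hmgb2 -0.09 to 0.391. For CD3+CD8- over CD3-CD8- the ranges were Cdk1 -0.311 to 0.14, Ccne1 -0.089 to 0.273, Stmn1 -0.141 to 0.59, Hmgb2 -0.004 to 0.357. For the interaction of CD3+CD8+ with CD3+CD8- the range was Mcm2 -0.175 to 0.914. In CD3-CD8- cells 0 members passed without untreated replicate 5.

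Counts over all genes also moved. For treatment in CD3-CD8- cells 3522 genes passed, against 5479 with DESeq2, 6399 with limma voom, 634 with GC correction, 910 without treated replicate 2, 1185 without treated replicate 19 and 239 without untreated replicate 5. For treatment in CD3+CD8+ cells the 0 became 380 with no filter, 99 with DESeq2, 197 with limma voom and 180 without untreated replicate 5, and in CD3+CD8- cells 195 with no filter and 2 with DESeq2. For CD3+CD8+ over CD3+CD8- the 1014 became 1613 with limma voom, and for CD3+CD8+ over CD3-CD8- the 1692 became 5139. For CD3+CD8- over CD3-CD8- the 1071 became 1963 with no filter, 2567 with limma voom, 624 without untreated CD3-CD8- replicate 5 and 614 without treated CD3-CD8- replicate 19. The 3 interactions gave 384, 171 and 160 genes with no filter.

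Library numbers recur between fractions, and no label says what they mark. Deviations from the group means correlated between -0.041 and 0.556 over 16 pairs of libraries with the same number, of which 14 were above 0.1, and between -0.542 and 0.446 over 38 other pairs, of which 6 were. Same-numbered libraries thus deviated together in both comparisons with CD3-CD8- cells, which does not show what the numbers mark. Block values were set beside those results because of these same correlations. Between the 2 CD3+ gates 3 of 5 same-numbered pairs were above 0.1, and there block values stand among the alternatives only. The block is 1 term per treatment and number over all 18 libraries, so it joins same-numbered libraries of these gates as well. With the replicate block 2233 genes passed for CD3+CD8- over CD3-CD8-, and with GC correction and the block 1675 for CD3+CD8+ over CD3+CD8- and 2381 for CD3+CD8- over CD3-CD8-. No paired analysis was possible for treatment because treated and untreated libraries share no numbers.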
